A study of Drosophila melanogaster with 96 samples.

Results

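The nuclear genes of the mitochondrial respiratory chain and ATP synthase were described in heads of adult flies, by complex, across temperature, light and hour of day. Genes were taken by their FlyBase symbol: ND- for complex I, Sdh for complex II, UQCR- for complex III, COX followed by a digit for complex IV and ATPsyn for complex V. Of the 17610 identifiers in the count table, 88 carried such a symbol, and the 67 that reached 10 or more counts in at least 48 of the 96 libraries form the set described here. The set held 34 of 40 matching genes of complex I, 5 of 8 of complex II, 7 of 9 of complex III, 9 of 16 of complex IV and 12 of 15 of complex V.

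Complexes I to IV sit in the inner mitochondrial membrane and pass electrons from NADH and succinate to oxygen, and complexes I, III and IV pump protons as they do so. Complex V, the ATP synthase, lets the protons flow back and makes ATP. A few core subunits of complexes I, III, IV and V are encoded by mitochondrial DNA, and the other subunits, with all of complex II, are encoded in the nucleus and imported. Photoreceptors and neurons are known for a high demand for ATP from this chain.

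Polyadenylated RNA was sequenced from heads of male Drosophila melanogaster of the ISO1 strain, the inbred stock of the fly reference genome, with no other allele or agent named in any group. The 4 groups were 18C DD, 25C DD and 29C DD, kept in constant darkness at the named temperature, and 25C LD, kept at 25C in 12 h of light and 12 h of darkness. Heads were collected every 4 h on day 4 and day 5 with 2 biological replicates per time point, so each group had 24 libraries. The labels do not say how many flies were pooled, from what event the days are counted or whether hour 0 is lights-on.

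Libraries held between 17.3 M and 34.7 M counts, with a median of 21.1 M. The rhodopsin gene ninaE, a photoreceptor marker, lay at 16900 CPM or above in each library (CPM, counts scaled to a common library size with TMM factors). On the labelled sex, lncRNA:roX1, an RNA of the male dosage compensation complex, ranged from 277 to 724 CPM, and Yp1, a yolk protein gene known from females, ranged from 9968 to 28250 CPM. How much female material the libraries held was not tested. The library of 25C DD at day 5 and hour 16, replicate 2, stood apart. The median of the 67 genes there was -0.47 on the log2 scale relative to their means over 96 libraries, against 0.09 in replicate 1 of that time point, and 64 of the 67 genes were below their means. In bulk heads, fewer cells of a type and less RNA per cell cannot be told apart.

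Of the 88 matching genes, 24 were paralogs with a symbol ending in L or L and a digit, which in the fly are mostly testis genes. Only 4 of these passed the count threshold, namely ND-51L2, UQCR-11L, COX7AL2 and ATPsynepsilonL. The 21 genes left out were 20 paralogs and ND-B8, a subunit of the NADH-oxidising arm of complex I, which had a median of 1 count and a highest value of 8 counts. At the threshold, ATPsynepsilonL reached 10 counts in 56 libraries and UQCR-11L in 64, whereas ND-51L1 did so in 15, COX5BL in 8 and COX4L in 7. Sdhaf3 matched by symbol but is an assembly factor of complex II, not a subunit. All 67 genes passed the expression filter of the statistical model.

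Per kb of exon, the ATP synthase and complex IV genes were the most abundant. Without the paralogs and Sdhaf3, the median level over libraries was 349 CPM per kb for the 11 genes of complex V, 338 CPM per kb for the 8 of complex IV and 223 CPM per kb for the 6 of complex III. It was 143 CPM per kb for the 4 genes of complex II and 127.5 CPM per kb for the 33 of complex I. These compare with 10.8 CPM per kb over all 10702 genes tested, and each of the 62 subunits lay above that value. ATPsynbeta, the catalytic subunit of the ATP synthase (FBgn0010217, chromosome 4, 1031484 to 1034917, BDGP6.54), led with a median of 686 CPM per kb, and ATPsynC, the proton-carrying ring (FBgn0039830, chromosome 3R, 31216145 to 31219630), followed at 594 CPM per kb.

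**Figure D1:**
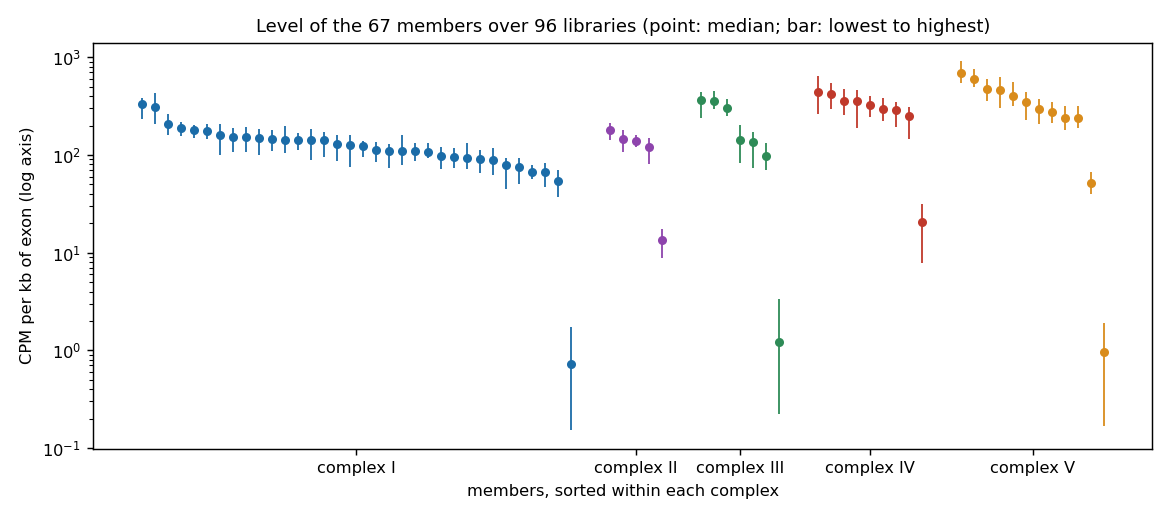
Level of each of the 67 genes in CPM per kb of exon on a log axis, by complex; points are medians over 96 libraries and bars run from the lowest to the highest library. The 4 paralogs and Sdhaf3 lie below the 62 other subunits, whose medians run from 52.0 to 686 CPM per kb.

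The lowest subunit per kb was ATPsyndelta, of the central stalk of the ATP synthase, at 52.0 CPM per kb. The exons of ATPsyndelta, 3817 bp, are the longest of the 67 genes, which lowers its value per kb. Not scaled by length, its group medians ran from 191.5 CPM in 18C DD to 205.7 CPM in 25C LD. Below ATPsyndelta came COX7AL2 at 20.5 CPM per kb and Sdhaf3 at 13.5 CPM per kb. UQCR-11L, ATPsynepsilonL and ND-51L2 lay at 1.22, 0.966 and 0.73 CPM per kb. The genes are spread over the genome, with 15 on chromosome 3R, 13 on 3L, 13 on 2R, 12 on 2L, 12 on X and 2 (ND-49 and ATPsynbeta) on the small chromosome 4. Their exons are short, with a median of 853 bp.

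The comparison of 18C DD with 25C DD asked how the chain's transcripts differ in the cold. Of the 67 genes, 33 passed the test, 15 higher and 18 lower at 18C, and their median log2 fold change was -0.01. Among all genes tested 66.8% were called, 32.7% higher and 34.1% lower, so the share called in the chain, 49.3%, was below the background, and the median over all genes was 0.00. Calls are at an adjusted p of 0.05, from edgeR's quasi-likelihood test with Benjamini-Hochberg adjustment over the 10702 genes. The changes were small: no gene of the chain changed 2-fold, and the median absolute log2 change of the called genes was 0.15, against 0.25 for all called genes.

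Complex I had 13 of 34 genes lower and 5 higher at 18C. The largest fall was in ND-51, the subunit that binds NADH and FMN (FBgn0031771, chromosome 2L, 6060842 to 6062757). ND-51 lay between 368 and 461 CPM (median 415) at 18C DD and between 469.8 and 608.5 CPM (median 539.9) at 25C DD. The 24 libraries of each group did not overlap, a property not given here for all genes. The mean fell from 539 ± 32.2 to 411 ± 23.2 CPM (SD, n = 24 each), a log2 change of -0.39 ± 0.02 (SE; edgeR adjusted p = 1.74e-28), and it was lower at 12 of 12 time points.

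ND-SGDH, a membrane-arm subunit (FBgn0011455, chromosome 3L, 12137496 to 12138584), had values of 92.2 to 122 CPM (median 104.5) at 18C and 94.3 to 152 CPM (median 127) at 25C. These ranges overlapped, and most 18C libraries lay in the lower part of the 25C range. It fell by 0.28 ± 0.04 on the log2 scale (edgeR adjusted p = 1.95e-10). ND-24, an iron-sulfur subunit beside ND-51, fell by 0.21 ± 0.03 (edgeR adjusted p = 8.62e-10), and ND-23, which carries iron-sulfur clusters toward the quinone site, fell by 0.09 ± 0.03 (edgeR adjusted p = 9.56e-04).

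Not all core subunits of complex I went the same way. ND-49, which helps form the quinone site (FBgn0039909, chromosome 4, 568296 to 571554), ranged from 278 to 331 CPM (median 300.2) at 18C and from 235 to 314 CPM (median 272) at 25C. The groups overlapped, but ND-49 was higher at 18C at 12 of 12 time points, by 0.15 ± 0.02 (edgeR adjusted p = 4.48e-08). ND-20, another quinone-site subunit, rose by 0.08 ± 0.02 (edgeR adjusted p = 0.00163), and ND-AGGG, an accessory subunit of the membrane arm, rose by 0.17 ± 0.05 (edgeR adjusted p = 0.00152). ND-75 and ND-30, the other nuclear core subunits, had log2 changes of -0.02 ± 0.02 and -0.02 ± 0.03 and were not called. By module, 3 of 7 genes of the NADH-oxidising arm were lower and 1 higher, 2 of 7 of the quinone module lower and 2 higher, and 8 of 19 of the membrane arm lower and 2 higher.

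Complex II had 3 of 5 genes higher at 18C and 0 lower. SdhB, the iron-sulfur subunit (FBgn0014028, chromosome 2R, 6807626 to 6809172), had 207 to 248 CPM (median 230.4) at 18C and 175 to 242 CPM (median 209.6) at 25C. The 25C range reached lower while the highest values were close together. SdhB was higher by 0.15 ± 0.03 (edgeR adjusted p = 3.38e-07) at 11 of 12 time points. SdhA, the flavoprotein that oxidises succinate, was higher by 0.05 ± 0.02 (edgeR adjusted p = 0.0409), a call lost without either replicate number (edgeR adjusted p = 0.0637 and 0.306). The membrane anchors SdhC and SdhD had changes of 0.04 ± 0.04 and -0.01 ± 0.03 and were not called. The assembly factor Sdhaf3 ranged from 5.39 to 8.29 CPM at 18C and from 4.13 to 7.10 CPM at 25C, and was higher by 0.31 ± 0.05 (edgeR adjusted p = 1.90e-07).

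Complex III had 3 of 7 genes lower and 1 higher. UQCR-C2, a core protein on the matrix side, had 418 to 507 CPM (median 474) at 18C and 444 to 582 CPM (median 516) at 25C. The upper part of the 25C range lay above all 18C libraries, and UQCR-C2 fell by 0.14 ± 0.03 (edgeR adjusted p = 4.76e-06). The accessory subunit UQCR-11 fell by 0.17 ± 0.06 (edgeR adjusted p = 0.00716), and UQCR-Q, also accessory, rose by 0.14 ± 0.04 (edgeR adjusted p = 0.0033). The rise of UQCR-Q was not called without the replicates numbered 2 (0.10, edgeR adjusted p = 0.0917).

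Complex IV had 4 of 9 genes higher and 1 lower, and complex V had 2 of 12 higher and 1 lower. COX7AL2, the paralog of COX7A, had 16.5 to 29.8 CPM (median 22.2) at 18C and 11.01 to 24.9 CPM (median 17.8) at 25C. Its rise of 0.40 ± 0.08 (edgeR adjusted p = 8.19e-06) was the largest in the set although the groups overlapped. COX8 rose by 0.14 ± 0.04 (edgeR adjusted p = 0.00196) and COX6B fell by 0.14 ± 0.03 (edgeR adjusted p = 1.57e-05), while COX4 and COX5A had changes of -0.03 ± 0.03 and 0.04 ± 0.03 and were not called.

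In the ATP synthase, ATPsynbeta had 1579 to 2046 CPM (median 1798) at 18C and 1327 to 1930 CPM (median 1573) at 25C. All 18C libraries lay above the 25C median, and ATPsynbeta was higher by 0.20 ± 0.03 (edgeR adjusted p = 4.41e-08). ATPsyngamma, the rotating shaft (FBgn0020235, chromosome 3R, 29747704 to 29749163), rose by 0.15 ± 0.03 (edgeR adjusted p = 1.85e-05), and ATPsynE, a membrane subunit, fell by 0.17 ± 0.03 (edgeR adjusted p = 3.21e-06). The other 9 genes of complex V were not called.

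**Figure D2:**
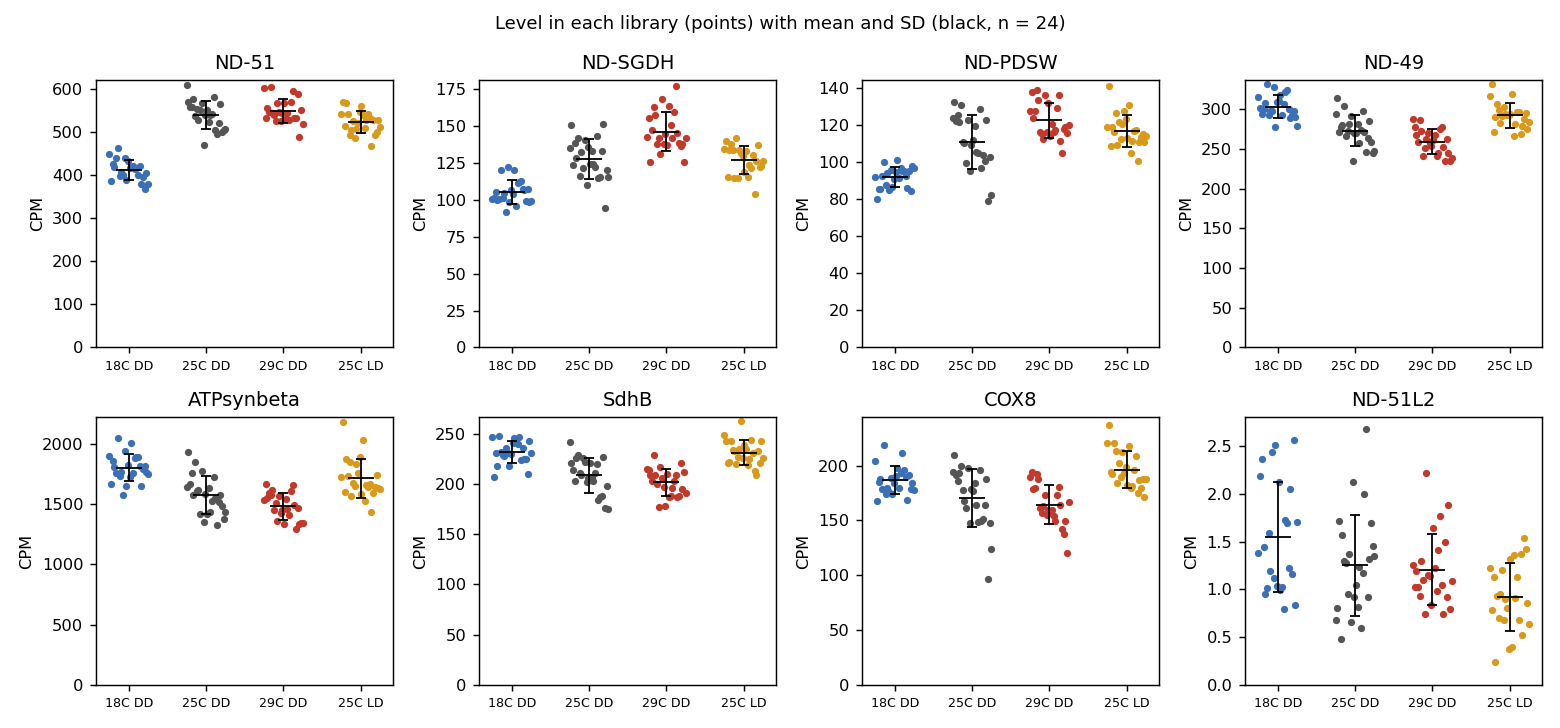
CPM of 8 genes in each library, by group, with mean and SD (n = 24). ND-51 at 18C DD (368 to 461 CPM) lies below every library of 25C DD (469.8 CPM and above), whereas the other 7 genes overlap between these groups.

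The days gave different counts at 18C. On day 4 alone, 3 genes were higher and 30 lower (54.4% of all genes called), and the median change was -0.10. On day 5 alone, 26 were higher and 7 lower (55.3% of all genes called), and the median was 0.08. On both days 3 genes were called higher, ATPsynbeta, ND-49 and Sdhaf3, beside 20.1% of all genes. On both days 7 were called lower, ND-18, ND-19, ND-24, ND-39, ND-51, ND-PDSW and ND-SGDH, beside 20.4% of all genes. ATPsynF, COX7C and ND-B15 were called lower on day 4 and higher on day 5, beside 0.168% of all genes with opposite calls, and 34 of the 67 genes had opposite signs. These names, beyond the core subunits, were chosen after their values were seen.

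ND-51 had nearly the same change on both days, -0.38 ± 0.04 and -0.39 ± 0.03. COX8 had 0.02 ± 0.05 on day 4 and 0.26 ± 0.07 on day 5. By time point, the median difference of the 67 genes was negative at the 6 time points of day 4, reaching -0.25 at hour 0, and positive at the 6 of day 5, reaching 0.12 at hours 16 and 20. The low library of 25C DD is among those of day 5, and without it the count over both days was 33 again, 13 higher and 20 lower, with a median of -0.02.

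**Figure D3:**
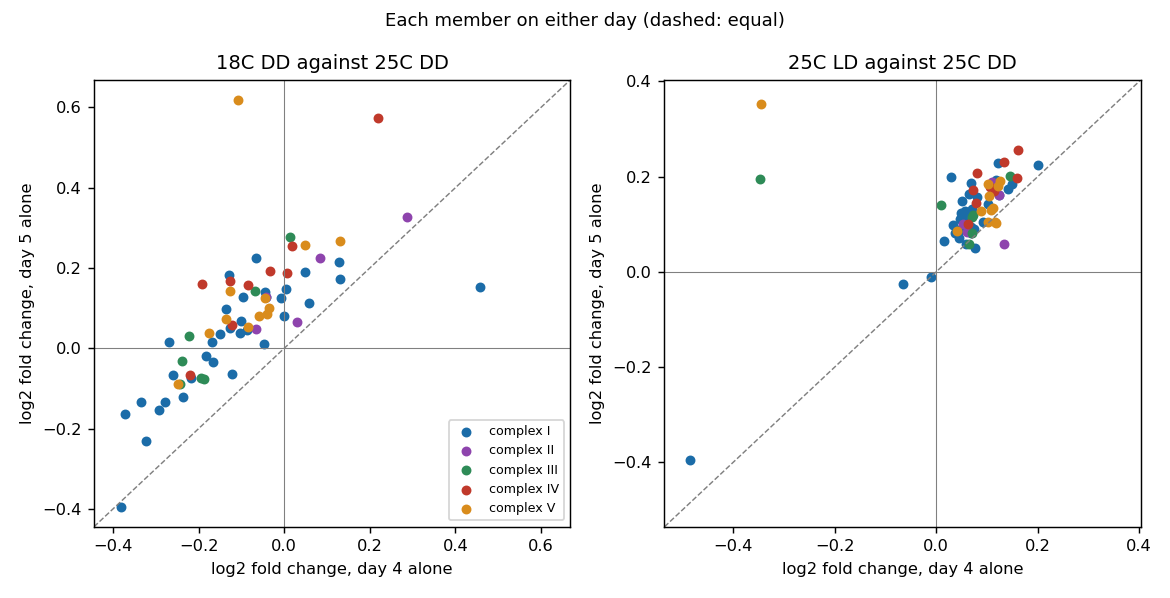
Log2 fold change of each gene on day 4 alone (horizontal) and day 5 alone (vertical) against 25C DD, for 18C DD on the left and 25C LD on the right; the dashed line marks equal changes. At 18C, 65 of 67 genes lie above the line, and in LD most genes are positive on both days.

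Cell type markers also moved at 18C. Of 10 photoreceptor markers 9 were lower and 0 higher, with a median log2 change of -0.52, and their summed level ran from 39210 to 89390 CPM at 18C DD and from 57800 to 101000 CPM at 25C DD. Of 11 muscle markers 9 were lower (summed 4339 to 5904 CPM at 18C, 4894 to 7943 CPM at 25C), and of 5 glial markers 4 were higher (summed 2368 to 3166 CPM at 18C, 2042 to 2506 CPM at 25C). Of 7 neuronal markers 4 were lower and 1 higher, with a median of -0.12 (summed 1950 to 3111 CPM at 18C, 1958 to 3286 CPM at 25C). No photoreceptor, muscle, glial or neuronal marker had a median of 0 CPM in any group. Among all genes 32.7% were higher and 34.1% lower at 18C than at 25C. The part of the markers in the changes of the chain was not tested.

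From 25C DD to 29C DD fewer genes moved. The comparisons of 18C DD, 29C DD and 25C LD share the libraries of 25C DD, so their changes are not independent. At 29C, 9 of the 67 were higher and 5 lower, 20.9% against 26.8% of all genes (13.8% higher, 13.0% lower). The 9 were 7 genes of complex I, Sdhaf3 and ATPsynE, and the 5 were ND-49, ND-AGGG, SdhA, ATPsynbeta and ATPsynC. No gene of complexes III and IV was among those called by edgeR. An unadjusted p below 0.05 was found for 2 of complex III and 1 of complex IV, beside 3984 of all 10702 genes. DESeq2 also called 14 of the 67.

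ND-SGDH had 125.5 to 177 CPM (median 142) at 29C, against 94.3 to 152 CPM at 25C. It was higher at 12 of 12 time points, by 0.19 ± 0.04 (edgeR adjusted p = 2.12e-05), and the ranges overlapped. ND-PDSW, another membrane-arm subunit (FBgn0021967, chromosome 2L, 3466157 to 3467334), had 105 to 139 CPM (median 119.8) at 29C and 79.1 to 133 CPM (median 110.8) at 25C. It rose by 0.15 ± 0.03 (edgeR adjusted p = 4.06e-04), with overlapping ranges. Sdhaf3 rose by 0.21 ± 0.05 (edgeR adjusted p = 0.00126) and ATPsynE by 0.09 ± 0.03 (edgeR adjusted p = 0.0214).

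The falls at 29C were small. ND-AGGG fell by 0.13 ± 0.05 (edgeR adjusted p = 0.0427) and ATPsynC by 0.06 ± 0.02 (edgeR adjusted p = 0.0319). ND-49 fell by 0.08 ± 0.02 (edgeR adjusted p = 0.0131), SdhA by 0.07 ± 0.02 (edgeR adjusted p = 0.00693) and ATPsynbeta by 0.09 ± 0.03 (edgeR adjusted p = 0.0319). Without the replicates numbered 2, a single gene, ND-SGDH, was called (9.82% of all genes). Without the replicates numbered 1, 12 were called (19.6% of all genes). On day 4 alone a single gene, Sdhaf3, was called (7.46% of all genes), and on day 5 alone 7 were (15.4%). Of 5 glial markers 4 were lower and 0 higher at 29C than at 25C (summed 1710 to 2280 CPM at 29C). Of 11 muscle markers 3 were higher and 0 lower (summed 5464 to 7350 CPM at 29C). Among all genes 13.8% were higher and 13.0% lower, and the part of the markers was not tested.

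Between the extremes, 29C DD against 18C DD, 38 of 67 genes were called, 23 higher and 15 lower at 29C, beside 74.5% of all genes (38.0% higher, 36.5% lower). Complex I had 16 genes higher and 6 lower at 29C and complex III 4 higher and 1 lower. Complex II had 0 higher and 2 lower, complex IV 1 higher and 3 lower, and complex V 2 higher and 3 lower.

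**Figure D4:**
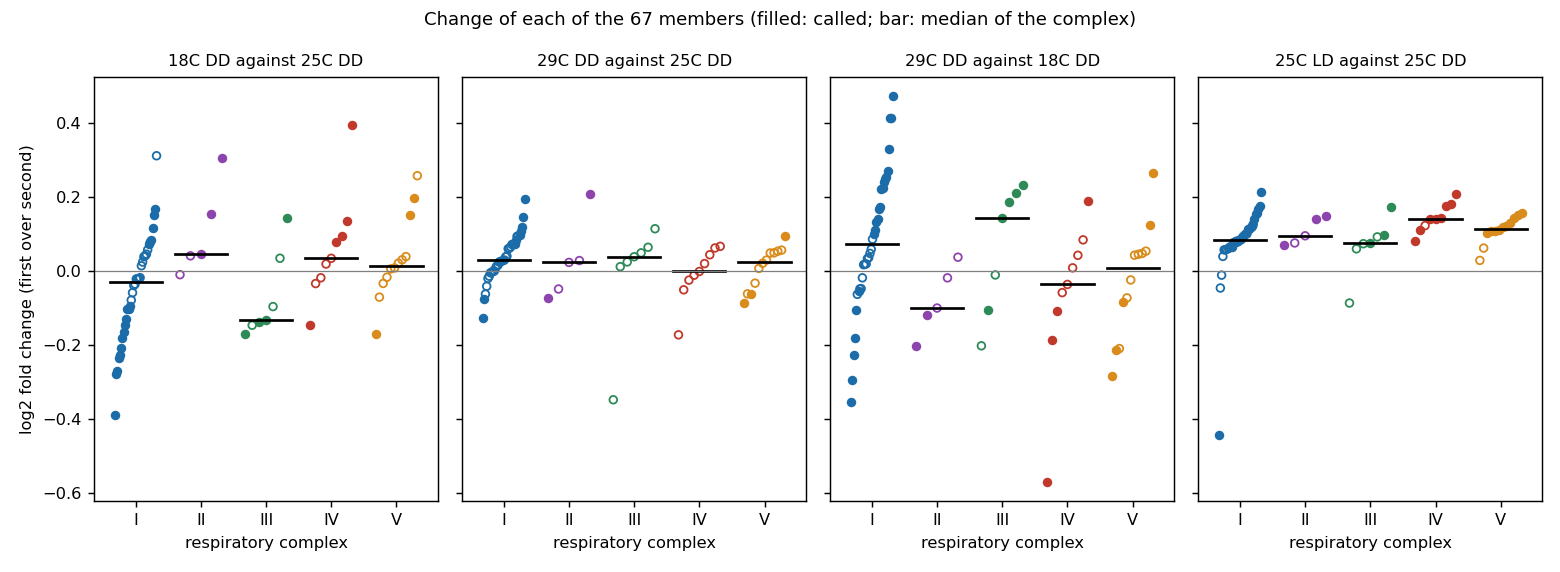
Log2 fold change of each gene in 4 comparisons, by complex; filled points passed the test at an adjusted p of 0.05 and bars are the median of a complex. In 29C DD against 18C DD the medians are 0.07 for complex I, -0.10 for II, 0.14 for III, -0.04 for IV and 0.01 for V, and in 25C LD against 25C DD all 5 are positive.

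Among complex I genes at 29C against 18C, ND-51, ND-PDSW and ND-SGDH had groups that did not overlap. The share of all genes with such groups is not given here. ND-SGDH rose from 105 ± 7.96 to 146 ± 13.3 CPM (SD, n = 24 each), by 0.47 ± 0.04 (edgeR adjusted p = 1.06e-20). ND-PDSW rose from 92.0 ± 5.48 to 123 ± 9.52 CPM, by 0.41 ± 0.03 (edgeR adjusted p = 7.50e-20), and ND-51 by 0.41 ± 0.02 (edgeR adjusted p = 1.34e-30). ND-49, ND-20 and ND-AGGG fell, by 0.23 ± 0.02, 0.10 ± 0.02 and 0.29 ± 0.05.

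In complex II, SdhB had 177 to 229 CPM at 29C against 207 to 248 CPM at 18C and fell by 0.20 ± 0.03 (edgeR adjusted p = 1.05e-10). SdhA fell by 0.12 ± 0.02 (edgeR adjusted p = 5.18e-07). In complex III, UQCR-11 and UQCR-6.4 were higher by 0.23 ± 0.06 and 0.21 ± 0.06. UQCR-Q was lower by 0.11 ± 0.04 (edgeR adjusted p = 0.0291), with a value of 0.00 ± 0.05 on day 4 alone and -0.22 ± 0.08 on day 5 alone.

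In complex IV, COX7AL2 fell by 0.57 ± 0.08 (edgeR adjusted p = 9.02e-10), from 23.0 ± 3.78 to 15.7 ± 3.34 CPM, and COX8 fell by 0.19 ± 0.04 (edgeR adjusted p = 2.38e-05). COX6B went the other way, up by 0.19 ± 0.03 (edgeR adjusted p = 2.96e-08). In complex V, ATPsynbeta fell by 0.28 ± 0.03 and ATPsyngamma by 0.21 ± 0.03, while ATPsynE rose by 0.26 ± 0.03 and ATPsynO, which joins stalk and catalytic head, by 0.12 ± 0.04. The low paralog ND-51L2 was lower at 29C by 0.35 ± 0.15 (edgeR adjusted p = 0.0304), at 0.739 to 2.22 CPM against 0.792 to 2.57 CPM. UQCR-11L and ATPsynepsilonL were called in none of the 4 comparisons of levels.

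Some of these calls at 29C against 18C were made on each day alone. On both days 15 of the 67 genes were called higher and 8 lower, beside 27.3% and 26.3% of all genes. The days gave 28 higher and 8 lower on day 4 (63.2% of all genes) and 15 higher and 14 lower on day 5 (64.2%). Photoreceptor markers were higher at 29C in 8 of 10 and lower in 1, muscle markers higher in 10 of 11 and lower in 0, and glial markers lower in 4 of 5 and higher in 0. Their summed levels in CPM at 29C were 59240 to 106800, 5464 to 7350 and 1710 to 2280. Among all genes 38.0% were higher and 36.5% lower at 29C than at 18C, and the part of the markers was not tested.

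Taking the 2 steps together, 6 genes rose from 18C to 25C and again to 29C: ATPsynE, ND-18, ND-B16.6, ND-MNLL, ND-PDSW and ND-SGDH. Over all genes 10.7% did so. At the step from 25C to 29C the 6 were called on day 5 alone, none on day 4 alone, and ND-SGDH alone of them without the replicates numbered 2. ATPsynbeta, ND-49, ND-AGGG and SdhA fell at both steps, beside 10.2% of all genes, and Sdhaf3 was lowest at 25C. None of these 4 was called lower at 29C than at 25C on either day alone or without the replicates numbered 2. The exons of ND-MNLL are shared in full with CG45089 on the same strand, so its value is uncertain. At neither step were 31 genes called, among them ND-75, ND-30, SdhC, SdhD, COX4 and COX5A.

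Light at 25C went with higher levels across all 5 complexes. In 25C LD against 25C DD, 43 of the 67 genes were higher and 1 lower, 65.7% beside 22.8% of all genes (11.6% higher, 11.2% lower). The median log2 change was 0.10, and 63 genes had a positive value. Higher genes made up 8 of 9 in complex IV, 10 of 12 in complex V, 19 of 34 in complex I, 3 of 5 in complex II and 3 of 7 in complex III.

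Summed over the 67 genes, the chain made up 1.31% to 1.80% of the TMM-scaled library size (median 1.49%) in 25C LD. In 25C DD it made up 1.15% to 1.67% (median 1.43%). The LD values reached higher, and the ranges overlapped widely. Scaled per kb of exon, complex IV genes summed to 2960 ± 242 CPM per kb in LD and 2672 ± 356 CPM per kb in DD. Complex V genes summed to 4308 ± 361 and 3965 ± 421 CPM per kb (SD, n = 24 each).

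In complex IV, COX8 had 171 to 237 CPM (median 193) in LD and 96.5 to 210.0 CPM (median 177) in DD. The LD group had no library as low as the lowest of DD, and COX8 was higher by 0.21 ± 0.04 (edgeR adjusted p = 4.00e-05) at 12 of 12 time points. COX4 and COX5A, which had not been called with temperature, were each higher by 0.14 ± 0.03 (edgeR adjusted p = 1.08e-04 and 6.07e-04), and COX7B by 0.18 ± 0.05 (edgeR adjusted p = 0.00947).

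In complex V, ATPsynbeta had 1434 to 2178 CPM (median 1663) in LD and 1327 to 1930 CPM (median 1573) in DD. It was higher by 0.12 ± 0.03 (edgeR adjusted p = 0.00215) with overlapping ranges, and ATPsyngamma and ATPsynF were higher by 0.15 ± 0.03 and 0.16 ± 0.04. In complex II, SdhB had 209 to 262 CPM (median 231.5) in LD and 175 to 242 CPM (median 209.6) in DD. It was higher by 0.15 ± 0.03 (edgeR adjusted p = 8.36e-06), SdhD by 0.14 ± 0.03 (edgeR adjusted p = 3.05e-05) and SdhA by 0.07 ± 0.02 (edgeR adjusted p = 0.00803).

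In complex I the largest rise was in ND-MLRQ, whose human counterpart has been placed in complex IV. It had 149 to 232 CPM (median 179.7) in LD and 112 to 199.6 CPM (median 162) in DD, and was higher by 0.21 ± 0.04 (edgeR adjusted p = 1.70e-04). ND-B12 followed at 0.18 ± 0.04 (edgeR adjusted p = 0.0011). Among core subunits ND-49, ND-23, ND-20 and ND-75 rose by 0.10, 0.08, 0.07 and 0.06, while ND-51 had a change of -0.05 ± 0.02 and was not called. The 1 gene that fell was ND-51L2, by 0.44 ± 0.16 (edgeR adjusted p = 0.0379), at 0.238 to 1.54 CPM in LD and 0.478 to 2.68 CPM in DD. That fall of ND-51L2 was not called without the replicates numbered 1 or without those numbered 2 (edgeR adjusted p = 0.14 and 0.214). In complex III, UQCR-Q rose by 0.17 ± 0.04 (edgeR adjusted p = 0.00257) and UQCR-C2 by 0.10 ± 0.03 (edgeR adjusted p = 0.00431).

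By time point, the median of the 67 differences between LD and DD was positive at 12 of 12 time points, from 0.01 at day 4, hour 16 to 0.22 at day 5, hour 20. Between 38 and 66 genes were higher in LD at each. At hour 20 it was 0.22 on both days, and at hour 16 it was 0.01 on day 4 and 0.21 on day 5.

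The number of calls in LD rested on part of the libraries. Without the replicates numbered 2 it was 6 genes (7.52% of all genes), with a median change of 0.05, and without those numbered 1 it was 44 (17.4% of all genes), with a median of 0.14. The 6 were ATPsynC, ATPsynD, COX7A, ND-B17.2, ND-B22 and SdhB. On day 4 alone 4 genes were called (5.29% of all genes) and on day 5 alone 18 (8.24%), and ATPsynC, COX8, ND-B17.2 and SdhD were called higher on both (1.83% of all genes). Without the single low library of 25C DD, 36 were higher and 1 lower (21.2% of all genes), with a median of 0.09. Within 25C LD the median level of the chain was higher in replicate 2 than in replicate 1 at 12 of 12 time points, by 0.05 to 0.21, and in 25C DD at 8 of 12.

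**Figure D5:**
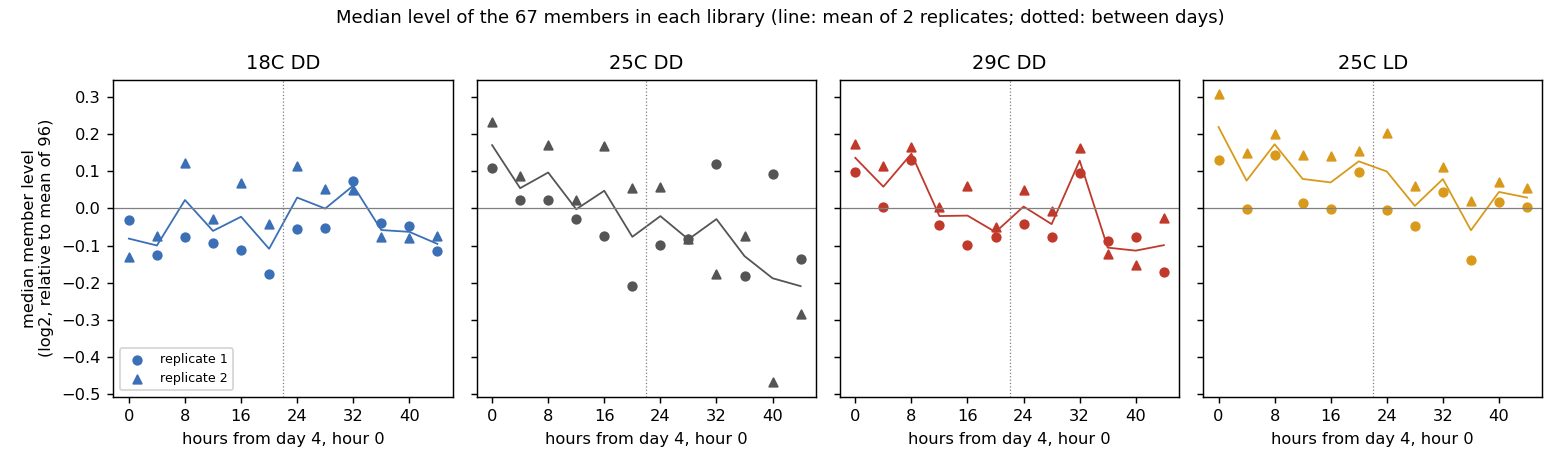
Median log2 level of the 67 genes in each library relative to their means over 96 libraries, by hours from day 4, hour 0; circles are replicate 1, triangles replicate 2, lines the mean of both, and the dotted line parts the days. In 25C LD the triangles lie above the circles at 12 of 12 time points, and 1 library of 25C DD on day 5 lies at -0.47.

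Other properties moved with the LD difference. Among genes with up to 2000 bp of exon and a mean of at least 50 CPM, leaving out the chain, 25.9% were higher in LD and 5.37% lower, and among genes with more than 5000 bp 2.96% were higher and 22.2% lower. Of the 67 genes, 63 have up to 2000 bp of exon. Of 5 glial markers 4 were higher and 0 lower (summed 2131 to 2750 CPM in LD, 2042 to 2506 CPM in DD), and of 5 fat body markers 3 were higher and 0 lower (summed 6157 to 12710 CPM in LD, 5961 to 14660 CPM in DD). Of 10 photoreceptor markers 1 was higher and 1 lower (summed 33690 to 80810 CPM in LD, 57800 to 101000 CPM in DD). None of these markers had a median of 0 CPM in either group. Among all genes 11.6% were higher in LD and 11.2% lower. The part of transcript length, glia or fat body in the LD difference was not tested.

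The time course asked whether the chain's transcripts follow a 24 h rhythm. In constant darkness 0 of 67 genes were called rhythmic at 18C, 25C or 29C by edgeR's test of the 24 h terms, beside 0.196%, 0.439% and 0.140% of all genes. With an unadjusted p below 0.05 there were 1, 11 and 24 genes, which is 1.49%, 16.4% and 35.8% of the 67, beside 5.20%, 8.02% and 5.81% of all genes. The smallest adjusted p was 0.846 for ND-42 at 18C, 0.0816 for ATPsynC at 25C and 0.206 for COX5A at 29C. DESeq2 called 0 at 18C and 29C, and at 25C it called ATPsynC.

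In 25C LD 3 genes were rhythmic, beside 14.2% of all genes. ATPsynC had hourly medians from 1083 CPM at hour 16 to 1280 CPM at hour 0 over 4 libraries per hour, and the values at these hours, 1017 to 1177 and 1156 to 1422 CPM, overlapped slightly. The fitted peak was at hour 2.45 ± 0.851 and the amplitude 0.10 ± 0.02 on the log2 scale (edgeR adjusted p = 0.00169).

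SdhA had hourly medians from 373 CPM at hour 16 to 427 CPM at hour 0, and the values at these hours, 371.5 to 398 and 397 to 438.5 CPM, overlapped slightly. It peaked at hour 23.5 ± 1.02, with an amplitude of 0.08 ± 0.02 (edgeR adjusted p = 0.0129). ND-42, an accessory subunit of complex I, peaked at hour 0.268 ± 1.09 and had an amplitude of 0.08 ± 0.02 (edgeR adjusted p = 0.0261). Its highest and lowest hourly medians were 187 CPM at hour 0 and 172 CPM at hour 16.

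These rhythms were slight, with fitted peaks 1.15, 1.12 and 1.12 times the troughs. Without the replicates numbered 1 a single gene, ATPsynC, was called (edgeR adjusted p = 0.0317), beside 6.47% of all genes. Without those numbered 2, beside 9.55% of all genes, none of the 3 was (edgeR adjusted p = 0.182 for ATPsynC, 0.299 for ND-42 and 0.308 for SdhA). The test of a difference in rhythm between 25C LD and 25C DD called 0 of 67 genes in edgeR, beside 5.26% of all genes, and 1 gene had an unadjusted p below 0.05; DESeq2 also called 0. The fitted peaks, nearly all of genes that were not called, lay between hours 0 and 6 for 57 of 67 genes at 25C DD (30.9% of all genes) and for 56 at 29C DD (21.1%). In 25C LD 39 fell in that window (21.1% of all genes), with 23 more from hour 18 to hour 24 (24.7%). At 18C DD 14 did so (23.9%), while 47 had a peak from hour 6 to hour 12 (28.9%). The 67 genes vary together between libraries, so their peaks are not independent of each other.

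Within 25C DD the chain was lower on day 5 than on day 4. There 25 of 67 genes were lower and 0 higher, beside 2.71% of all genes in either direction (1.36% higher, 1.35% lower), and the median shift was -0.14. Without the low library the count was 6 (0.916% of all genes), without the replicates numbered 2 it was 0 (0.0841%) and without those numbered 1 it was 58 (20.5%). At 18C DD, 29C DD and 25C LD 0 of 67 genes were called in edgeR, beside 2.21%, 0.290% and 0.168% of all genes (in 25C LD 0.0561% higher and 0.112% lower). With an unadjusted p below 0.05 there were 1, 16 and 28 of the 67 genes, beside 1841, 769 and 678 of all 10702. DESeq2 called 0, 1 and 1 (ATPsynC in both). The median shifts were 0.03, -0.08 and -0.09. All genes together had medians of 0.00 in each group. The share of counts in ribosomal RNA genes in 25C DD was 1.72% to 3.30% on day 4 (median 1.99%) and 1.53% to 4.48% on day 5 (median 2.37%), with the highest value in the low library. At 18C DD it was 1.36% to 4.24% on day 4 (median 1.96%) and 2.18% to 7.76% on day 5 (median 2.89%), and its part in the shifts was not tested. The chain's summed share of the TMM-scaled library size in 25C DD was 1.24% to 1.67% on day 4 (median 1.47%). On day 5 that share was 1.15% to 1.54% (median 1.34%), with overlapping ranges.

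The shift between days differed between 18C DD and 25C DD for 10 genes, all more positive at 18C, beside 2.37% of all genes (1.81% in that direction). They were ATPsynD, ATPsynF, ATPsyngamma, COX5A, COX5B, COX7B, COX7C, ND-ASHI, ND-B12 and ND-B15. In COX7B, the largest, day 5 against day 4 was 0.13 ± 0.08 at 18C and -0.23 ± 0.08 at 25C, a difference of 0.37 ± 0.11 (edgeR adjusted p = 0.0482). In ND-B15 it was 0.08 ± 0.06 and -0.25 ± 0.06, a difference of 0.32 ± 0.08 (edgeR adjusted p = 0.0218). The count was 4 without the low 25C DD library (ATPsynD, ATPsynF, COX5A and ND-B15), beside 1.42% of all genes. It was 0 without the replicates numbered 2 (0.187% of all genes) and 21 without those numbered 1 (4.36%). For 29C DD and 25C LD against 25C DD, 0 of 67 genes were called in edgeR, beside 0.00% of all genes in both. An unadjusted p below 0.05 was found for 3 and 1 of the 67, beside 520 and 259 of all 10702, and DESeq2 called 0 in both.

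The genes also varied together between libraries of the same group and time. After the model's terms were removed, the median pairwise correlation over 96 libraries was 0.66 among the 67 genes and 0.00 among all genes tested. It was 0.82 within complex IV, 0.82 within complex V, 0.64 within complex I, 0.44 within complex II and 0.43 within complex III. The first residual component held 20.3% of the variance of all genes, and its sign was set so that ATPsynbeta was positive. With that sign, 63 of the 67 genes correlated positively with it, with a median of 0.64 against 0.08 for all genes. ATPsynbeta had the highest value, 0.89, and SdhA the lowest, -0.35. Both genes of a pair are read in the same libraries at the same depths, and what the component stands for was not tested.

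Subunits that the symbol rule misses were also mostly higher in LD. Beside 11.6% higher and 11.2% lower among all genes, 7 of these 9 genes were higher in 25C LD and 0 lower, with a median of 0.11. They include RFeSP and Cyt-c1, the Rieske iron-sulfur protein and cytochrome c1 of complex III, cype and levy of complex IV, blw and sun of the ATP synthase, and Cyt-c-p, the somatic cytochrome c. Cyt-c-p rose by 0.18 ± 0.04 (edgeR adjusted p = 1.38e-04) and levy by 0.15 ± 0.03 (edgeR adjusted p = 4.60e-04), while ox of complex III and Cyt-c-d, the testis cytochrome c, were not called. At 18C against 25C, Cyt-c1 fell by 0.25 ± 0.03 (edgeR adjusted p = 8.45e-12) and Cyt-c-p rose by 0.08 ± 0.04 (edgeR adjusted p = 0.0439). The other 7 were not called, while 66.8% of all genes were.

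Of the 13 subunit genes on mitochondrial DNA, 0 were called in LD by edgeR, while 8 had an unadjusted p below 0.05. Among all 10702 genes tested, 2440 were called in LD and 3746 had such a p. The 13 changes were positive, with a median of 0.22 and standard errors from 0.08 to 0.40, and libraries were poly-A selected. For temperature, the only call in each comparison was mt:ND6, which was higher at 18C than at 25C by 0.35 ± 0.15 and lower at 29C than at 25C by 0.48 ± 0.17 and at 29C than at 18C by 0.83 ± 0.16 (edgeR adjusted p = 0.0382, 0.0243 and 3.17e-06).

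The tricarboxylic acid cycle list, which feeds the chain with NADH and succinate, had 18 genes tested. In LD 7 (38.9%) were higher and 0 lower, with a median of 0.07, beside 11.6% and 11.2% of all genes. Among the 7 were mAcon1, by 0.10 ± 0.02, and Ogdh, by 0.07 ± 0.02. At 18C 6 (33.3%) were higher and 10 (55.6%) lower than at 25C, beside 32.7% and 34.1% of all genes. They include kdn, the citrate synthase, up by 0.14 ± 0.02, and ScsbetaA, of succinyl-CoA synthetase, down with a log2 change of -0.57 ± 0.06. Of 8 carriers and uncoupling proteins, 3 (37.5%) were higher in LD and 1 (12.5%) lower. The ADP/ATP carrier sesB was higher at 18C by 0.16 ± 0.02 (edgeR adjusted p = 2.83e-09) and in LD by 0.07 ± 0.02 (edgeR adjusted p = 0.0286), and lower at 29C than at 25C by 0.07 ± 0.02 (edgeR adjusted p = 0.0121).

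Among 12 regulators of respiratory and mitochondrial transcription, 3 were higher and 3 lower at 18C, 25.0% each beside 32.7% and 34.1% of all genes. In LD 2 were higher and 3 lower, 16.7% and 25.0% beside 11.6% and 11.2% of all genes. TFAM, which packages mitochondrial DNA, rose by 0.11 ± 0.04 at 18C and by 0.11 ± 0.04 in LD, and Ets97D, the fly homologue of the GABPA subunit of NRF-2, had a change of -0.29 ± 0.04 at 18C. Of the 7 assembly factors found, the copper chaperone Scox fell most at 18C, by 0.41 ± 0.04, and was higher at 29C than at 25C by 0.17 ± 0.03.

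Ribosomal protein genes gave other counts. Of 73 mitochondrial ribosomal protein genes, 17 (23.3%) were higher and 2 (2.74%) lower in LD (median 0.07), beside 11.6% and 11.2% of all genes. At 29C against 25C, 28 (38.4%) were higher and 1 (1.37%) lower (median 0.08), beside 13.8% and 13.0% of all genes. Of 84 cytosolic ones, 1 (1.19%) was higher and 2 (2.38%) lower in LD (median 0.01). At 18C against 25C, 2 (2.38%) were higher and 63 (75.0%) lower (median -0.18), beside 32.7% and 34.1% of all genes. No test compared these lists with the chain.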

How the data were processed

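The deposited table held estimated counts per gene under FlyBase identifiers; 40.2% of its nonzero values, and 66.1% of those of the 67 genes, were not whole. Per the submitters' processing notes, the tools were fastp 0.23.2, HISAT2 2.2.1, and featureCounts from Subread 2.0.8; their roles and settings, the genome build and the strand setting are not given in the sources used here. Per the labels' protocols, libraries were poly-A selected and directional. The design assumed whole counts, so the estimated counts were rounded and the count tests kept. All columns matched a sample.

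Counts were scaled by TMM and fitted in edgeR 4.0.16 (R 4.3.3) with a quasi-likelihood model over 96 libraries: each group had its own mean, 24 h sine wave and difference between day 4 and day 5, 16 columns in all. The filterByExpr function kept 10702 of 16896 genes, holding 99.96% of counts, and p-values were adjusted over these by the Benjamini-Hochberg method. Log values used a prior count of 2. Fold changes are log2 with model standard errors, and the scripts were tested on simulated data. All 48 replicate pairs differed beyond counting noise (chi-square per gene 8.78 to 137). Depth was 17.3 M to 34.7 M counts per library. Each level rests on 24 libraries, and their SD also holds differences between hours, days and replicates.

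The genes and lists were chosen with earlier results of these data known. The genes named in each comparison are the 2 largest called rises and falls of each complex, a list of core subunits, the L paralogs and the subunits outside the symbol rule; others are named where few were called. Symbols and positions were read from the BDGP6.54 gene models; the authors' build may be another. Exons of 7 genes overlap another gene on the same strand and those of 28 on the opposite strand; UQCR-14 is overlapped in full by CG32576, and such counts are uncertain. Alternatives were DESeq2 1.42.0, RLE size factors, other filters on low counts, a replicate block, single days, residual components as covariates, and leaving out replicates or the low library, the last chosen after seeing the data.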

Additional observations from a re-analysis of the deposited data

Results flagged for a closer look

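Within 25C LD, 1 of the 4 SdhA values at hour 16 lay far from the others, at 398 CPM against a median of 373 CPM and a lowest value of 371.5 CPM. Chance alone marks about 1 in 20 such sets of 4, and 18 were examined, so a single mark is no pattern.

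The shift from day 4 to day 5 differed between 18C DD and 25C DD in 10 of the 67 genes by edgeR's test of the difference. The differences, 18C minus 25C on the log2 scale, were 0.22 for ATPsynD, 0.28 for ATPsynF, 0.22 for ATPsyngamma, 0.25 for COX5A and 0.24 for COX5B. They were 0.37 for COX7B, 0.31 for COX7C, 0.20 for ND-ASHI, 0.31 for ND-B12 and 0.32 for ND-B15. Their adjusted p-values lay between 0.0213 and 0.0482. The low library of 25C DD, at day 5, hour 16, moves with this result, and 4 genes were called without it.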

How the results depend on the processing

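Of the 67 genes, 29 to 40 were called between 18C DD and 25C DD, beside 33 in the main fit. Between 29C DD and 18C DD 29 to 45 were called, beside 38. These totals stayed within 1.5 times their main values under the alternatives run, but the directions at 18C against 25C changed by day. Against 25C, 3 were higher and 30 lower at 18C on day 4 alone, and 26 higher and 7 lower on day 5 alone. For 29C DD against 25C DD (14), leaving out 1 replicate number gave 1 to 12, day 4 alone 1, day 5 alone 7 and 2 residual components as covariates 26 (41.1% of all genes). For 25C LD against 25C DD (44), leaving out 1 replicate number gave 6 to 44, day 4 alone 4 and day 5 alone 18. Rhythmic genes at 25C DD (0) were 1 with DESeq2, 1 with a filter of 1 CPM, 1 with a replicate block within conditions and 17 with the components (7.10% of all genes); at 29C DD (0) they were 0 to 1 without 1 replicate number and 27 with the components (6.34%). In 25C LD (3) they were 0 to 1 without 1 replicate number, 0 on either day alone and 12 with the components (31.0%). Genes whose rhythm differed between LD and DD (0) were 3 with the replicate block (12.0%) and 3 with the components (14.3%). Genes whose day shift differed at 18C (10) were 4 with no filter on low counts, 0 to 21 without 1 replicate number, 52 with the components (21.8%) and 4 without the low library. Genes lower on day 5 in 25C DD (25) were 0 to 58 without 1 replicate number, 58 with the components (13.9%) and 6 without the low library. Genes shifting between days with the components were 2 at 18C DD (21.4% of all genes) and 11 at 29C DD (3.73%). They were 17 in 25C LD (2.69%), from 0 in each group in the main fit. The share of all genes called rose with the components in these results too. Genes shifting between days at 29C DD were 1 with DESeq2, with a filter of 1 CPM and with the block within conditions. In 25C LD they were 1 with DESeq2, with RLE size factors and with that filter, and 2 with that block. UQCR-Q at 29C against 18C, -0.11, had 0.0037 on day 4 alone. Fewer libraries enter the fits by day or replicate. Leaving out either replicate number removes equally many libraries. Without the replicates numbered 1, 44 genes were called for LD against DD, and without those numbered 2, 6 were. What moved these counts was not tested.

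Samples share a replicate number only: residuals of same-numbered libraries had correlations above 0.1 in 18 to 21 of 24 pairs for each 2 groups, and their scores on the first residual component correlated at 0.72 to 0.86. With the replicate block the counts were 39 for 18C against 25C (72.9% of all genes) and 20 for 29C against 25C (38.4%). They were 45 for 29C against 18C (79.7%) and 56 for LD against DD (35.9%). A day shift that differed at 18C was called in 46 genes (15.5%). The share of all genes called was higher with the block in each of these. Over the named genes and all alternatives, 1075 values kept direction and side of the threshold, 117 lost their call, 20 gained one and 1 reversed. Depth limits the 3 lowest paralogs, whose libraries hold few counts.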
